A study of Mus musculus with 12 samples.

Results

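The GIMAP genes encode the GTPases of immunity-associated proteins, small guanine-nucleotide-binding proteins of lymphocytes. The family was followed here in mouse CD4 T cells with and without the pyruvate kinase gene product PKM2, at rest and after stimulation through the T cell receptor. Its members were taken by gene symbol: Gimap1, Gimap3, Gimap4, Gimap5, Gimap6, Gimap7, Gimap8 and Gimap9, that is 8 of the 55450 genes in the deposited tables, and all 8 passed the filter on low counts in every comparison. The family was chosen with earlier results of these data known. Naive T cells were taken from the spleens and lymph nodes of mice that were wild type (WT) or lacked Pkm2 (KO), and the RNA was prepared from CD4 T cells obtained by positive selection. Resting cells of either genotype were kept for 24 hours in medium with human IL7 at 25 ng/mL, the survival cytokine of naive T cells. Stimulated cells of either genotype had the same medium and the same time on plates coated with anti-CD3 at 1 ug/mL and anti-CD28 at 2 ug/mL, so IL7 was present in all 4 groups. Each group had 3 libraries, 12 in all. The sources used here state no knockout allele, no driver that limits it to certain cells, and no strain or age of the mice, and the labels call the culture both overnight and 24 hours. No label ties the 3 libraries within a group to different animals; p-values then measure only how far these samples spread, and that spread may be technical.

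GIMAP proteins belong to a family of septin-like GTPases, several of which sit on intracellular membranes through a hydrophobic tail, and in mammals their genes lie together in a single cluster. Loss of Gimap5 in rats and mice depletes peripheral T cells, and loss of Gimap1 depletes mature lymphocytes, which is why the family is tied to the survival of naive lymphocytes. PKM2 is the splice form of pyruvate kinase that proliferating cells favour, and the study's title places it in CD4 T cell survival; the comparisons below ask how the GIMAP transcripts stood with and without it and before and after stimulation.

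The 8 genes lie within 123.618 kb at chr6:48647234-48770851 (mm10), in the order Gimap8, Gimap9, Gimap4, Gimap6, Gimap7, Gimap1, Gimap5 and Gimap3. Gimap6 and Gimap3 are annotated on the minus strand and the others on the plus strand, and all 8 are annotated as protein coding. Gimap8, the long member with several GTPase domains, spans chr6:48647234-48660875 and has 2064 coding bases. The coding sequences of the other 7 run from 873 bases (Gimap9) to 984 bases (Gimap4). Gimap5 (chr6:48746197-48754210) and Gimap3 (chr6:48764464-48770851) are neighbours that read towards each other, and they are the closest copies in the family.

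Over 889 aligned coding bases Gimap3 (903 bases) and Gimap5 (924 bases) were 92.6% identical, and their annotated transcripts shared 335 stretches of 31 bases, which is 13.2% of those of the smaller set. No other pair of members shared any stretch of 31 bases, and identity over their aligned coding bases ran from 66.9% (Gimap6 and Gimap7) to 76.2% (Gimap6 and Gimap8). The part of the coding sequences around the longest identical run is shown because the read counts of the 2 genes have to be told apart there; it is 5′ to 3′ in the coding direction, from the GENCODE M21 transcripts, and capitals mark the 4 bases that differ within 200.
Gimap3, coding positions 145 to 344: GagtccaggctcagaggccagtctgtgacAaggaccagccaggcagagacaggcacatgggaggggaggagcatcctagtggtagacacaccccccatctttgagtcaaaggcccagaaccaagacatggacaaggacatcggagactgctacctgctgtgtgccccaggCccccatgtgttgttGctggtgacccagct
Gimap5, coding positions 157 to 356: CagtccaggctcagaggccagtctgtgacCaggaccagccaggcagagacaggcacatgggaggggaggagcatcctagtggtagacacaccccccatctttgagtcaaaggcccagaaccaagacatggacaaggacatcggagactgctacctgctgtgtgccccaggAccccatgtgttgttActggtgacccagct
The identical run is 140 bases long and covers coding positions 175 to 314 of Gimap3 and 187 to 326 of Gimap5. RSEM divides reads that fit several transcripts by an estimate, and a divided gene can carry a count that is not whole. The deposited counts of Gimap3, Gimap5 and Gimap1 were not whole in 12 of 12 libraries, that of Gimap7 in 1 of 12, and those of Gimap4, Gimap6, Gimap8 and Gimap9 in none of the 12. The levels of Gimap3 and Gimap5 therefore depend on that estimate, and Gimap1 shares 1107 of its 3073 exon bases with Gimap1os, a gene on the opposite strand. The sources used here do not state whether counting used the strand, so reads of Gimap1 and Gimap1os cannot be told apart with certainty.

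Library totals ran from 63266477 to 72128433 counts at rest and from 67333490 to 76891786 after stimulation, and each member had at least 1675 counts in every library. The targeted gene checked the genotype labels: Pkm, which encodes both PKM1 and PKM2, was at 455 ± 47.4 CPM (a count scaled to a fixed library size; SD, n = 3) in WT and 185 ± 11.7 in KO resting cells, and at 2485 ± 35.5 and 1052 ± 14.6 after stimulation, for log2 fold changes of KO against WT of -1.30 ± 0.08 (SE; adjusted p = 0.00411 by edgeR) and -1.23 ± 0.03 (adjusted p = 1.36e-08). The sum of the 18 CD4 T cell markers was 8035 to 9636 CPM at rest and 4552 to 4682 after stimulation, with none of them at 0. Other cell types were also represented. The 16 myeloid markers summed to 1671 to 4850 CPM at rest and 71.0 to 159 after stimulation, the 17 B cell markers to 2629 to 5476 and 663 to 1461, and the 7 endothelial markers to 216 to 271 and 23.7 to 26.5. The 10 NK cell markers summed to 180 to 263 and 31.2 to 63.9, the 6 dendritic cell markers to 87.9 to 162 and 6.36 to 13.2, the 8 neutrophil markers to 55.1 to 219.6 and 1.10 to 16.2, and the 2 CD8 T cell markers to 45.8 to 68.5 and 15.4 to 32.7. Erythroid markers were uneven: the first resting library of WT (1728 CPM) and of KO (1708 CPM) stood above the other resting libraries (60.2 to 518 CPM). Of all these markers only Elane, a neutrophil gene, was at 0, in both stimulated groups. Sex-linked transcripts separated the 2 conditions as well: the X-inactivation transcript Xist was at 0.0577 to 0.0971 CPM at rest and 822 to 1020 CPM after stimulation, and the Y-linked Ddx3y at 158 to 188 CPM at rest and at 0 counts after stimulation. Condition, the sex of the donor animals and the deposited table therefore cannot be told apart in any comparison of stimulated with resting cells, while the comparisons of KO with WT lie within 1 condition.

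At rest the family took 0.395 to 0.403% of all counts in WT cells and 0.401 to 0.431% in KO cells. Compared per length, as CPM per kb of annotated exon, Gimap4 was the highest member in WT resting cells at 532 ± 18.8 per kb (SD, n = 3), and Gimap3 followed at 487 ± 12.1 per kb. Gimap6 was at 190.4 ± 4.71 per kb, Gimap8 at 145 ± 2.13, Gimap9 at 80.7 ± 3.65, Gimap1 at 72.9 ± 1.55, Gimap7 at 46.5 ± 7.03 and Gimap5 at 19.8 ± 0.37. The 3 libraries of no 2 neighbours in this order overlapped, in WT or in KO cells. The order of the top pair depends on the length used: per kb of the longest protein-coding transcript, a length chosen after seeing the data, Gimap3 stood at 585 ± 14.5 and Gimap4 at 541 ± 19.1, and Gimap1 rose to 150 ± 3.19, above Gimap9 at 95.8 ± 4.33. Gimap5, the member whose loss depletes T cells in rodents, was the lowest at rest with either length.

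Most of the family stood lower in stimulated than in resting WT cells, which also differ in donor sex and deposited table. Gimap3, the copy of Gimap5, stood at 1098, 1125 and 1155 CPM in the WT resting libraries and at 320.5, 327 and 307 CPM in the stimulated ones. Gimap4, reported to speed the death of T cells, stood at 867, 820.4 and 944 CPM at rest and at 260.4, 288 and 292 CPM after stimulation. The libraries of the 2 conditions were far apart for both genes, and no stimulated library came near a resting one. Gimap3 fell by 1.82 ± 0.05 (SE) on the log2 scale, a 3.54-fold lower level (edgeR, adjusted p = 2.33e-12), and Gimap4 fell by 1.65 ± 0.06, a 3.13-fold lower level (adjusted p = 3.25e-11). Beside them the summed CD4 T cell, myeloid, B cell and endothelial markers were lower too, as given above, and their part in the fall was not tested. In bulk RNA, fewer cells of a type and less RNA per cell cannot be told apart.

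**Figure D1:**
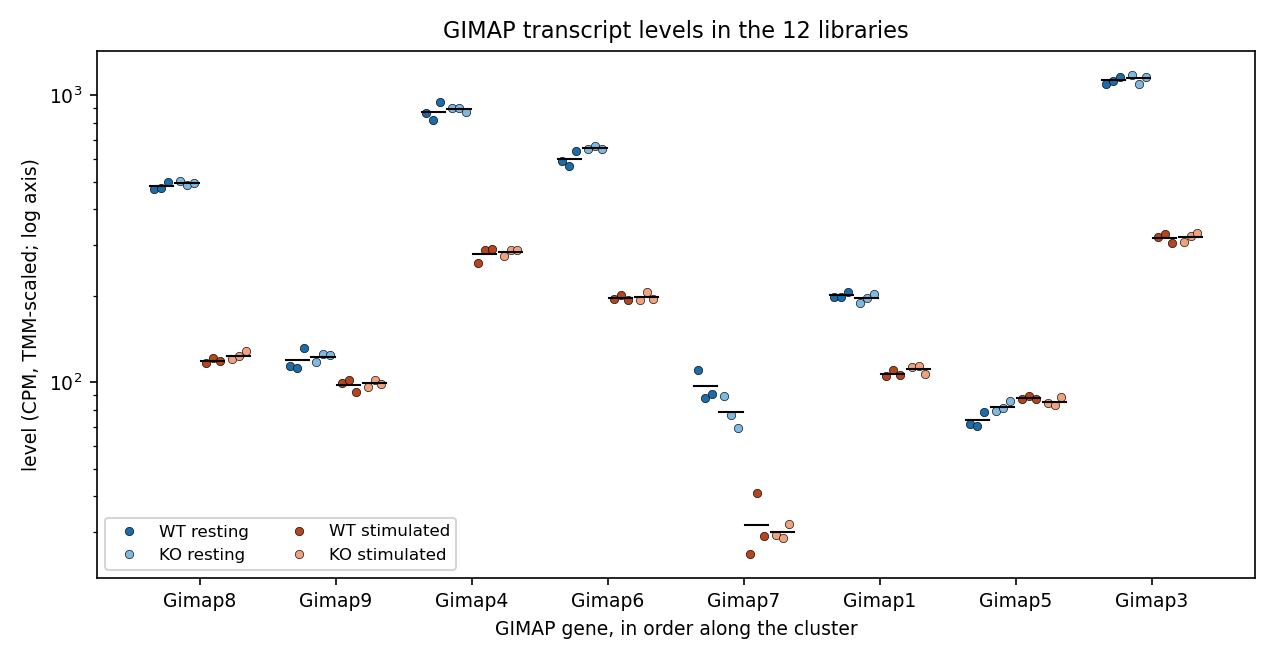
Level of each GIMAP gene in CPM scaled by TMM (log axis) in each of the 12 libraries, in the order of the genes along the cluster; points are libraries, coloured by group, and bars are means of 3. All 6 stimulated points lie below all 6 resting points for 7 of the 8 genes, with the exception of Gimap5, whose points lie between 70.5 and 89.5 CPM over the 4 groups.

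Gimap8 showed the deepest fall of the family: it stood at 470.4, 475 and 498 CPM in WT resting and at 117, 121 and 119 CPM in WT stimulated libraries, a 4.05-fold lower level (log2 fold change -2.02 ± 0.04, adjusted p = 2.65e-13). Gimap6, whose protein binds the autophagy factor GABARAPL2, stood at 589, 566 and 638 CPM at rest and at 194.5, 202 and 193 CPM after stimulation, and fell by 1.61 ± 0.05 on the log2 scale. Gimap7, a member that hydrolyses GTP when it dimerises, stood at 111, 88.2 and 91.3 CPM at rest and at 25.2, 41.1 and 29.1 CPM after stimulation, and fell by 1.60 ± 0.17. In these 3 genes too every stimulated library lay below every resting one. Gimap7 had the widest spread of the family. Its highest stimulated value was in WT replicate 2, which also held the highest sums of B cell (1094 CPM), myeloid (114 CPM) and NK cell (56.7 CPM) markers among the 3 WT stimulated libraries, against 663 to 896, 71.0 to 87.0 and 31.2 to 42.8 CPM in the other two. Every other list except that of CD4 T cells was also highest in WT replicate 2 among these libraries. Erythroid markers summed to 69.9 CPM there against 18.4 and 19.7, and neutrophil markers to 16.2 CPM against 1.10 and 2.455. In KO stimulated libraries the B cell, myeloid and NK cell sums were 1407 to 1461, 148 to 159 and 53.5 to 63.9 CPM. Their erythroid and neutrophil sums were 14.2 to 24.5 and 5.91 to 11.4 CPM, with Gimap7 at 28.7 to 32.2 CPM. The part of these markers in the values was not tested.

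The other 3 members moved less. Gimap1, needed for mature lymphocytes, stood at 198, 198 and 206 CPM in WT resting and at 105, 109.9 and 106 CPM in WT stimulated libraries, a fall by 0.91 ± 0.04 on the log2 scale. Gimap9 stood at 114, 112 and 132 CPM and then at 99.1, 102 and 92.8 CPM, a fall by 0.28 ± 0.06 (adjusted p = 0.000886). Gimap5 went the other way: it stood at 71.6, 70.5 and 78.9 CPM at rest and at 87.6, 89.5 and 87.2 CPM after stimulation, with every stimulated library above every resting one and a rise of 0.26 ± 0.05 (adjusted p = 0.000299). In all, 7 of 8 members were called lower and 1 higher in WT cells. The background is high here, since 84.1% of the 17460 genes tested were called, 44.8% lower and 39.3% higher, so that a call alone says little about the family. Groups that did not overlap were also common, in 45.0% of genes to the lower and 39.7% to the higher side. The median of the 8 log2 fold changes was -1.61, against -0.14 over all genes tested.

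In KO cells the same 7 members were called lower, against 82.9% of genes called, 43.2% lower and 39.6% higher. Gimap3 stood at 1179, 1093 and 1161 CPM in KO resting and at 308, 323 and 330.2 CPM in KO stimulated libraries, a fall by 1.84 ± 0.05 on the log2 scale. Gimap4 stood at 899, 902 and 877 CPM and then at 275, 289 and 290 CPM, a fall by 1.65 ± 0.06. Gimap8 stood at 503, 486 and 494 CPM and then at 120.5, 123 and 128 CPM, a fall by 2.00 ± 0.04. The falls of these abundant members had nearly the same size as in WT cells. Gimap6 stood at 650.5, 665 and 652 CPM and then at 193, 207 and 196 CPM, a fall by 1.72 ± 0.05. Gimap7 stood at 89.3, 76.6 and 69.5 CPM and then at 29.4, 28.7 and 32.2 CPM, a fall by 1.38 ± 0.17. Gimap1 stood at 189.6, 197 and 203 CPM and then at 113, 114 and 107 CPM, a fall by 0.83 ± 0.04. For each of these the libraries of the 2 conditions did not overlap, as in 45.4% of genes to the lower and 41.3% to the higher side. Gimap9 stood at 118, 125 and 125 CPM and then at 96.6, 102 and 98.7 CPM, a fall by 0.31 ± 0.06 (adjusted p = 0.000479). Gimap5 stood at 79.3, 81.3 and 85.8 CPM at rest and at 84.5, 83.6 and 88.6 CPM after stimulation; these libraries overlapped, and its log2 fold change was 0.06 ± 0.05 (adjusted p = 0.265).

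Whether KO cells responded differently from WT cells was tested directly, as the KO response minus the WT response. Stimulation, donor sex and deposited table cannot be told apart in this difference either. None of the 8 members was called (edgeR), against 0.693% of the 17460 genes tested; DESeq2 called 0 of the 8 as well, and 1 member had an unadjusted p below 0.05 against 2772 genes in all. That member was Gimap5, with a difference of -0.20 ± 0.07 on the log2 scale (95% interval -0.35 to -0.05, adjusted p = 0.191). The call for Gimap5 turned on 1 library: without WT resting replicate 3, the highest of the WT resting values of Gimap5, its adjusted p was 0.0232, in a fit that called 1646 genes in all in place of 121. For Gimap1, Gimap3, Gimap4, Gimap6, Gimap8 and Gimap9 the differences lay between -0.12 (Gimap6) and 0.09 (Gimap1), and the interval of Gimap7 was wide, from -0.32 to 0.76.

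The direction of Gimap5 rests on the scaling. The main values use TMM, which centres the bulk of the genes. With library totals in its place the median log2 fold change of all genes moved by -0.34 in WT and -0.33 in KO cells, and Gimap5 turned to -0.08 in WT (adjusted p = 0.0531) and -0.27 in KO cells (adjusted p = 1.58e-05). The other 7 members remained lower in both genotypes under every scaling run. With totals the fall of Gimap9 was over 1.5 times that with TMM, with log2 fold changes of -0.62 in WT and -0.63 in KO cells. Relative to the median of all genes, Gimap5 stood 0.39 higher in WT with TMM and 0.40 with totals, and 0.17 higher in KO cells with either, while Gimap9 stood at -0.15 and -0.14 in WT cells and at -0.20 with either in KO cells.

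Within the family the balance between members does not depend on scaling. Gimap5 made up 2.06 ± 0.04% of the summed GIMAP counts in WT resting cells and 7.12 ± 0.13% in WT stimulated cells, and 2.24 ± 0.10% and 6.83 ± 0.21% in KO cells. Gimap9 went from 3.33 ± 0.16% to 7.92 ± 0.31% in WT cells and Gimap1 from 5.63 ± 0.11% to 8.63 ± 0.06%. The largest part, Gimap3, went from 31.5 ± 0.90% to 25.7 ± 0.74%, and Gimap8 from 13.5 ± 0.24% to 9.60 ± 0.13%. The ratio of Gimap3 to Gimap5 counts was 15.3, 16.0 and 14.7 in WT resting and 14.9, 13.4 and 13.5 in KO resting libraries, and 3.66, 3.66 and 3.52 in WT stimulated and 3.65, 3.86 and 3.73 in KO stimulated libraries. All 6 resting ratios lay above all 6 stimulated ones, with WT and KO overlapping in each condition. As counts of these copies share reads, the ratio carries the uncertainty of that division. Per kb of exon the order after stimulation in WT cells was Gimap4, Gimap3, Gimap9, Gimap6, Gimap1, Gimap8, Gimap5 and Gimap7, from 134 ± 7.36 to 12.1 ± 3.03 per kb, and the libraries of Gimap9 (49.9 to 54.4 per kb) and Gimap6 (48.7 to 50.5 per kb) overlapped.

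**Figure D2:**
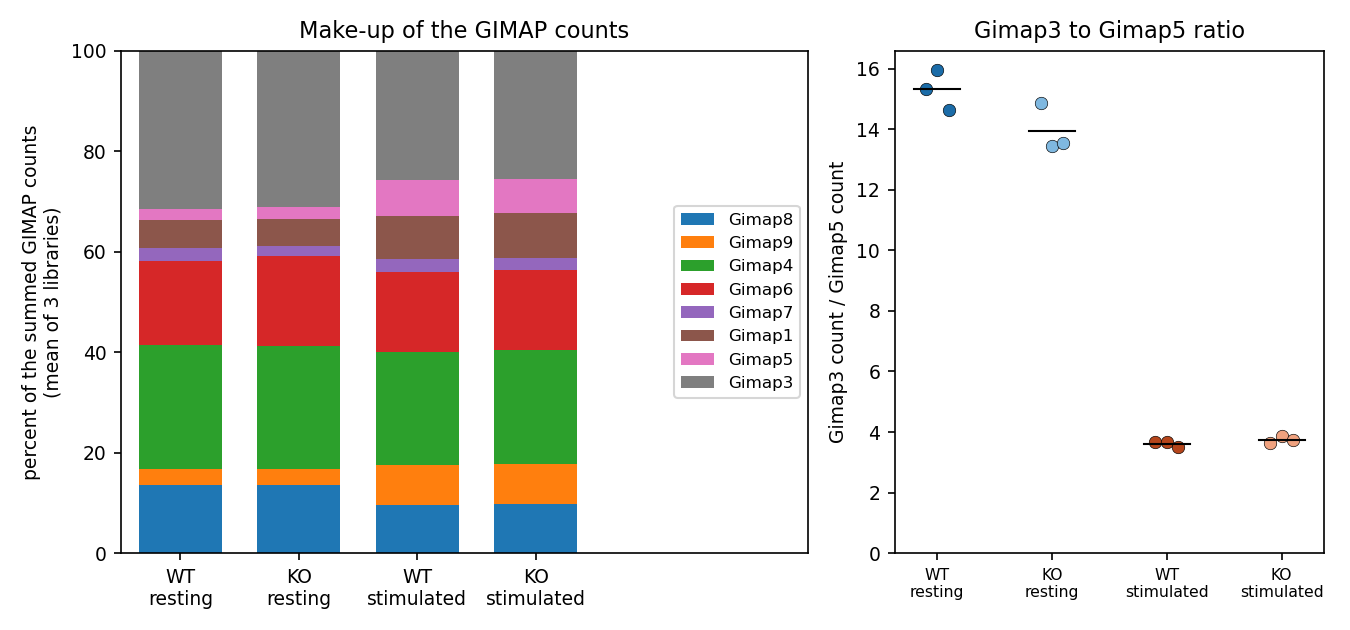
Left, the percentage of the summed GIMAP counts that each gene took, as a mean of 3 libraries, in each group; right, the ratio of the Gimap3 count to the Gimap5 count in each library (points) with group means (bars). The shares of Gimap5, Gimap9 and Gimap1 are larger after stimulation, and the ratio lies between 13.4 and 16.0 at rest and between 3.52 and 3.86 after stimulation.

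Resting KO cells held the family at levels near those of resting WT cells. None of the 8 members was called (edgeR), and DESeq2 called 0 as well. The background was 0.0361%, 6 of 16637 genes, so few genes of any kind were called in this comparison; 2284 genes and 2 members had an unadjusted p below 0.05. Gimap3, Gimap4, Gimap8 and Gimap9 had log2 fold changes from 0.01 to 0.03, Gimap1 had -0.04 ± 0.05, and the libraries of KO and WT overlapped for all 5. Their 95% intervals lay within -0.15 (Gimap1) and 0.18 (Gimap9), which bounds any difference in these genes but does not show that they are equal. The median over the 8 members was 0.02, against 0.01 over all genes tested.

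Gimap5, Gimap6 and Gimap7 had the largest genotype differences at rest. Gimap5 was at 71.6, 70.5 and 78.9 CPM in WT and at 79.3, 81.3 and 85.8 CPM in KO libraries, so that the lowest KO library lay just above the highest WT library; the log2 fold change was 0.15 ± 0.05 (95% interval 0.03 to 0.27, adjusted p = 0.323). Gimap6 was at 589, 566 and 638 CPM in WT and at 650.5, 665 and 652 CPM in KO libraries, again without overlap, with a log2 fold change of 0.13 ± 0.06 (95% interval -0.01 to 0.26, adjusted p = 0.397). Such separation to the higher side was seen in 9.86% of the genes tested, and to the lower side, where no member stood, in 10.0%. Gimap7 was at 111, 88.2 and 91.3 CPM in WT and at 89.3, 76.6 and 69.5 CPM in KO libraries, which overlapped, with a log2 fold change of -0.31 ± 0.12 (95% interval -0.61 to -0.01, adjusted p = 0.355). The WT library with the most Gimap7, replicate 1, also had the highest summed B cell (5476 CPM) and myeloid (4850 CPM) markers of the 6 resting libraries. WT replicate 3 had lower sums (2629 and 1765 CPM) than WT replicate 2 (3952 and 2728 CPM) but slightly more Gimap7, 91.3 against 88.2 CPM. In KO libraries these sums varied little, from 3791 to 3930 and from 1671 to 1694 CPM. Erythroid sums were 1728, 518 and 60.2 CPM in WT and 1708, 224 and 146 CPM in KO replicates 1, 2 and 3. Their order was that of Gimap7 in KO but not in WT libraries. Myeloid markers were below 0 in log2 fold change in 16 of 16 with none called. The part of these markers in the Gimap7 values was not tested.

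**Figure D3:**
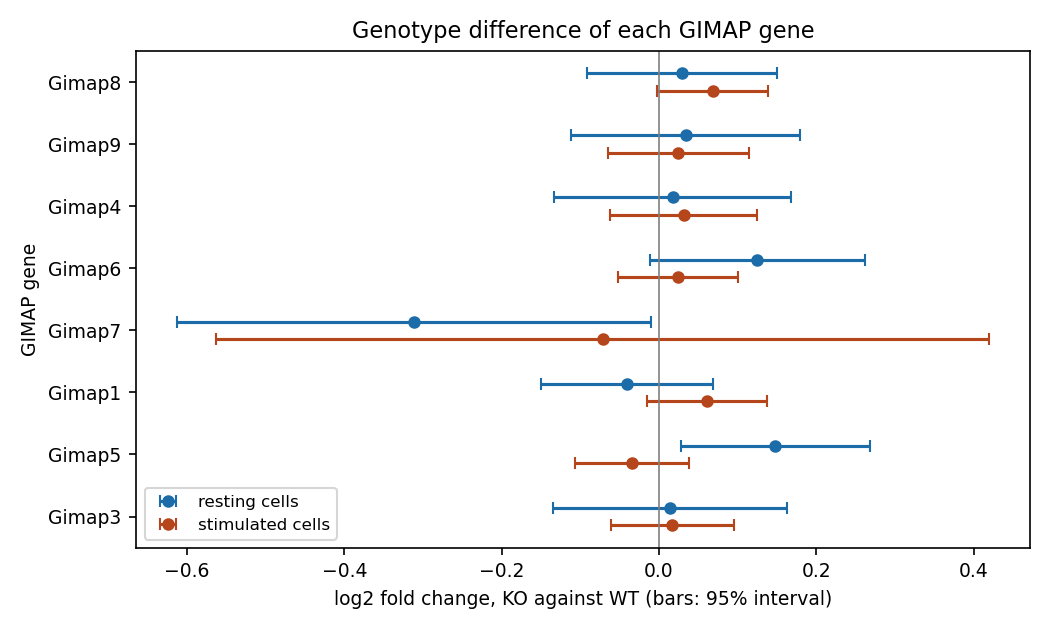
Log2 fold change of KO against WT for each GIMAP gene in resting and in stimulated cells, with 95% intervals from edgeR (6 libraries in each comparison). Every interval includes 0 except those of resting Gimap5 (0.03 to 0.27) and resting Gimap7 (-0.61 to -0.01), and no adjusted p passed 0.05.

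Stimulated KO and WT cells also held the family at similar levels. None of the 8 members was called (edgeR), although 719 of 15090 genes, 4.76%, were called in this comparison; DESeq2 also called 0 of the 8, and no member had an unadjusted p below 0.05. KO and WT libraries overlapped for every member, while they stood apart in 13.4% of genes to the higher and 14.6% to the lower side. The log2 fold changes ran from -0.07 ± 0.19 for Gimap7 (95% interval -0.56 to 0.42) to 0.07 ± 0.03 for Gimap8 (95% interval -0.0022 to 0.14, adjusted p = 0.258). Without Gimap7, whose libraries spread most, the intervals of the other 7 lay within -0.11 (Gimap5) and 0.14 (Gimap8). The median over the 8 members was 0.02.

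Genes around the cluster differed between stimulated and resting cells in both directions, as genes in general did. Within 500 kb of the cluster 51 other genes are annotated, of which 22 were tested for the response to stimulation. In WT cells 8 of them were called higher and 9 lower, with a median log2 fold change of -0.28. In KO cells 8 were called higher and 10 lower, with a median of -0.51. These counts are near the shares over all genes tested, 39.3% higher and 44.8% lower in WT cells and 39.6% and 43.2% in KO cells. They do not set the neighbourhood apart. Tmem176b, a membrane protein of dendritic cells and some T cells, lies beyond the Gimap3 end of the cluster and fell by 2.80 ± 0.14 in WT cells. It was also the only gene of this neighbourhood called between KO and WT in stimulated cells, at 2.65, 3.89 and 3.27 CPM in WT and at 5.52, 5.74 and 4.96 CPM in KO libraries (log2 fold change 0.74 ± 0.14, adjusted p = 0.0176), against a background of 4.76%. That call was lost, with adjusted p up to 0.0901, when any of WT replicate 3 or KO replicates 1, 2 and 3 was left out. Its neighbour Tmem176a, at 0.87 ± 0.21 (edgeR, adjusted p = 0.0538), and Gpnmb, at 1.175 ± 0.317 (adjusted p = 0.0999), were not called. The median over the 20 neighbourhood genes tested between KO and WT was -0.02. Dendritic cell markers summed to 6.36 to 10.1 CPM in WT and 11.7 to 13.2 CPM in KO stimulated libraries. B cell (663 to 1094 and 1407 to 1461 CPM), myeloid (71.0 to 114 and 148 to 159 CPM) and CD8 T cell sums (15.4 to 21.0 and 28.5 to 32.7 CPM) were also higher in KO. The sums of the remaining lists overlapped. The part of these markers in the Tmem176b difference was not tested.

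Gimap1os, the antisense neighbour whose exons overlap Gimap1, was the only gene within 500 kb called in the difference of responses. Over all genes tested 0.693% were called. Gpnmb, at 1.44 ± 0.41 (edgeR, adjusted p = 0.123), and the other genes there were not called, which does not show that their responses were equal. As above, stimulation, donor sex and deposited table cannot be told apart here. Gimap1os stood at 29.3, 25.3 and 29.7 CPM in WT resting and at 32.3, 36.3 and 36.2 CPM in KO resting libraries. After stimulation it stood at 28.4, 26.2 and 24.7 CPM in WT and at 22.1, 22.8 and 23.3 CPM in KO libraries. KO libraries thus lay above WT libraries at rest and below them after stimulation, without overlap in either condition. Such separation was seen in 9.86% of genes to the higher side at rest and in 14.6% to the lower side after stimulation. By edgeR the genotype difference was 0.30 ± 0.07 at rest (adjusted p = 0.264) and -0.21 ± 0.06 after stimulation (adjusted p = 0.0645), and neither was called. DESeq2 called both (adjusted p = 0.0376 and 0.0287), and edgeR called that after stimulation without a low-count filter (adjusted p = 0.0139) or without WT stimulated replicate 2 (adjusted p = 0.0464). The response of KO cells minus that of WT cells was -0.53 ± 0.10 (edgeR, adjusted p = 0.039). That call was lost in 9 of 12 fits that left out 1 library (adjusted p up to 0.113): of the 12 it remained only without WT resting replicate 1, WT resting replicate 3 or KO resting replicate 1. It was also lost with the replicate number as a block (-0.53, adjusted p = 0.0645), while DESeq2 kept it (adjusted p = 0.00026). The gene Gm28053, a readthrough model that shares exon bases with Gimap7, Gimap1 and Gimap5, stood between 2.19 and 4.79 CPM in the 12 libraries, and edgeR called it in none of the 5 comparisons. Its response to stimulation was called lower in 2 of 21 alternatives in WT cells and in 5 of 21 in KO cells, among them library totals in place of TMM (-0.62, adjusted p = 0.0112, and -0.72, adjusted p = 0.00465).

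**Figure D4:**
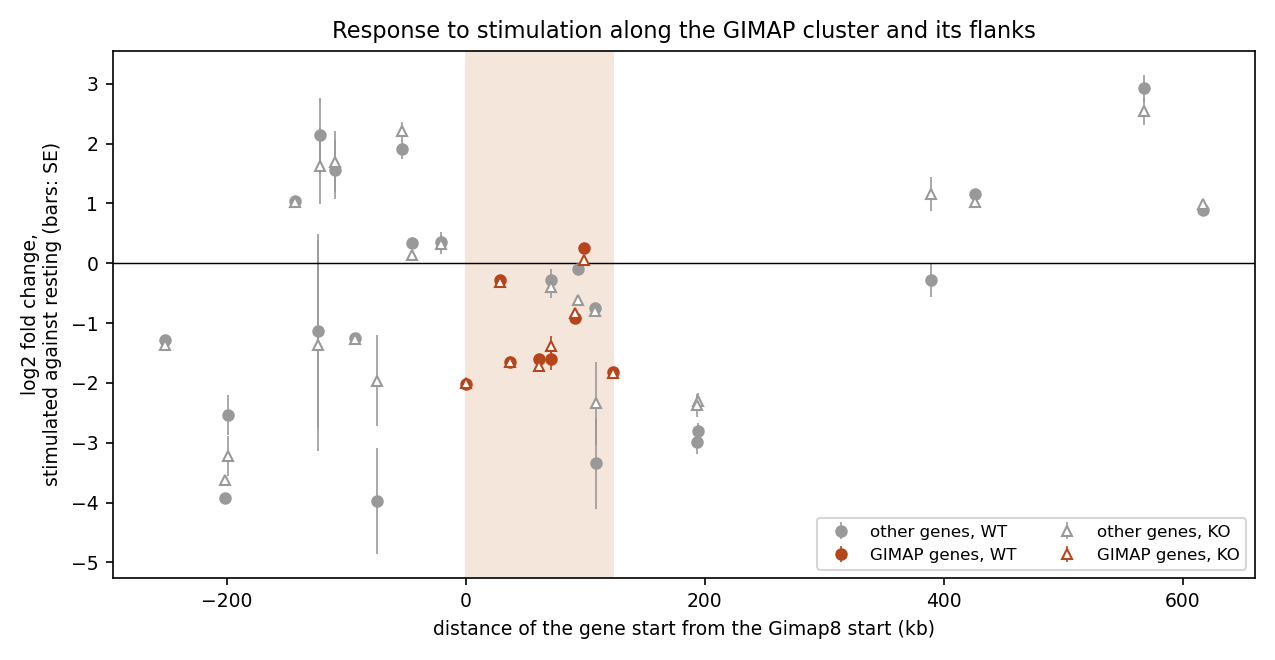
Log2 fold change of stimulated against resting cells (bars: SE) for the tested genes within 500 kb, by the distance of the gene start from the start of Gimap8; filled circles are WT and open triangles KO, with GIMAP genes in orange and the span of the cluster shaded. GIMAP genes run from -2.02 (Gimap8) to 0.26 (Gimap5) in WT cells, while genes on either side lie above and below 0.

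RefSeq promoters, the 250 bases before each annotated start (GRCm38.p6), were available for 8 of 8 members. Letters that the ETS factors of T cells can bind (AGGAAG or its reverse complement CTTCCT) were in 6 of the 8 promoters, those of Gimap1, Gimap3, Gimap4, Gimap5, Gimap7 and Gimap9, against 29.6% of 32536 promoters of that length. RUNX letters (TGTGGT or ACCACA) were in 3, Gimap1, Gimap4 and Gimap7, against 14%. FOX letters (GTAAACA or TGTTTAC) were in that of Gimap3 alone, against 3.17%; E-box letters (CAGGTG or CACCTG) in that of Gimap9, against 17.3%; and TATA letters (TATAAA or TTTATA) in that of Gimap6, against 12.3%. TCF/LEF letters (CTTTGAT or ATCAAAG) and KLF/SP letters (GGGTGNGG or CCNCACCC) were in none of the 8, against 3.21% and 15%. No 2 of the motifs searched hold one another. For Gimap8 the more upstream of its 2 RefSeq promoters was counted; the other holds an ETS match. A match is a description of letters, not a binding site. The promoters of Gimap3 and Gimap5 are shown because these close copies in coding sequence differed in their response, and that of Gimap8 because it fell most; each is 5′ to 3′ in the direction of its gene, and capitals mark matches.
Gimap3 promoter, chr6:48770852-48771101, minus strand: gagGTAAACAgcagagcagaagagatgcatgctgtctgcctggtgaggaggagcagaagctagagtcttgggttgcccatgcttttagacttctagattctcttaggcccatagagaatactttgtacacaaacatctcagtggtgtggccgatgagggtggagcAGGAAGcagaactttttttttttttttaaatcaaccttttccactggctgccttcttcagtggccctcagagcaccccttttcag
Gimap5 promoter, chr6:48745947-48746196, plus strand: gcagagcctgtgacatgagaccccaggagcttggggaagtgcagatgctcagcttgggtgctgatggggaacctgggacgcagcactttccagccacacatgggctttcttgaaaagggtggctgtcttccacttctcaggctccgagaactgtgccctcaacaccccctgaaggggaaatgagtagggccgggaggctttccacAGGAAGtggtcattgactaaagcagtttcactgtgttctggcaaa
Gimap8 promoter, chr6:48646984-48647233, plus strand: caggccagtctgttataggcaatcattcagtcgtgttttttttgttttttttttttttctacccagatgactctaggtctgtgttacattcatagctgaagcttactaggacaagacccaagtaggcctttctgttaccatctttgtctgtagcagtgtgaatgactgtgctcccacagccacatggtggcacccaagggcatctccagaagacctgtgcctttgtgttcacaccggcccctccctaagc
Gimap3, which fell, and Gimap5, which did not with TMM scaling, each carry ETS letters, at 85 and at 45 bases before the start, and Gimap8 carries no match here.

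Genes whose products are reported to act with GIMAP proteins differed in both directions between stimulated and resting cells. Of 12 such genes, 7 were called higher and 4 lower in WT cells, with a median log2 fold change of 0.26 against -0.14 over all genes. Over all genes tested 39.3% were called higher and 44.8% lower, so a call alone says little about this list. Bcl2l1, which encodes the survival protein BCL-XL, rose by 3.34 ± 0.06 on the log2 scale, Bax, a pore-forming death effector, by 1.39 ± 0.04, the chaperone gene Hspa8 by 1.26 ± 0.09 and the death effector Bak1 by 1.10 ± 0.05. The survival genes Bcl2 and Mcl1 were among the 4 that fell, by 0.80 ± 0.12 and 0.76 ± 0.05. Gabarapl2, the autophagy gene whose product binds GIMAP6, fell by 0.51 ± 0.05 and Gsk3b, a kinase gene, by 0.34 ± 0.05; the 1 gene not called was Bcl2l11. Bcl2, Mcl1, Gabarapl2, Gsk3b and Bcl2l11 are named in addition to the 4 largest changes. Between KO and WT none of the 12 was called at rest or after stimulation (edgeR), with 3 and 1 at an unadjusted p below 0.05; Hspa8 and Mcl1, the most abundant at rest, were at 2283 ± 308 and 697 ± 14.8 CPM in WT and 1662 ± 143 and 576 ± 18.7 CPM in KO resting cells.

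Genes of naive T cell quiescence and survival differed between stimulated and resting cells over a wider range than the GIMAP genes. Of 30, 23 were called lower and 6 higher in WT cells, with a median log2 fold change of -1.62, close to the -1.61 of the GIMAP genes. Among all genes tested 44.8% were called lower and 39.3% higher. The largest log2 fold changes were those of S1pr1, the receptor for exit from lymph nodes, at -6.38 ± 0.09, of the quiescence factor Klf2 at -5.68 ± 0.08, of the PI3K inhibitor Pik3ip1 at -5.22 ± 0.08 and of Ypel3 at -4.78 ± 0.06. Between KO and WT stimulated cells this list held calls: 6 of 30 higher and 2 lower, against 3.37% and 1.40% of all genes. The list was chosen with earlier results of these data known, so its share of calls cannot be weighed against that background. Klf2 was at 8.33 ± 0.56 CPM in KO and 5.29 ± 0.45 in WT cells (log2 fold change 0.66 ± 0.09, adjusted p = 0.00611). Ypel3 was higher by 0.53 ± 0.08 (adjusted p = 0.00787), S1pr1 by 0.43 ± 0.09 (adjusted p = 0.0283) and Ccr7, a homing receptor, by 0.37 ± 0.04 (adjusted p = 0.00204). The call for S1pr1 was lost in 5 of 6 fits that left out 1 library, all but that without WT replicate 2, with adjusted p up to 0.113. In the same libraries B cell markers summed to 1407 to 1461 CPM in KO and 663 to 1094 CPM in WT cells, and myeloid markers to 148 to 159 and 71.0 to 114 CPM; their part was not tested.

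Another family of immune GTPases, the interferon-inducible GBP and IRG proteins and the related Mx proteins, moved in both directions. Of 15, 9 were called higher and 6 lower in stimulated than in resting WT cells, with a median of 0.56. The shares over all genes tested were 39.3% higher and 44.8% lower. Mx1 fell by 4.15 ± 0.17 and Mx2 by 2.77 ± 0.19 on the log2 scale, while Gbp2 rose by 3.70 ± 0.10 and Gbp5 by 2.77 ± 0.05. In stimulated cells 3 of the 15 were called higher in KO than in WT cells, Mx1 by 1.30 ± 0.20, Gbp9 by 0.31 ± 0.05 and Gbp3 by 0.23 ± 0.05, and 1 lower, Gbp2, by -0.17 ± 0.04, against 3.37% and 1.40% of all genes. This list too was chosen with earlier results of these data known. The B cell and myeloid marker sums given above were higher in the same KO libraries, and their part was not tested here either. Of these only Mx1 remained called whichever 1 library was left out; Gbp9 was lost without KO replicate 2 or 3 (adjusted p up to 0.067), Gbp3 without WT replicate 1 or 3 or KO replicate 2 or 3 (up to 0.137), and Gbp2 without WT replicate 1 or any KO replicate (up to 0.16). In the fit of all 12 libraries Gbp3 (adjusted p = 0.166) and Gbp2 (adjusted p = 0.461) were not called, nor was Gbp2 with library totals (adjusted p = 0.0614).

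By the root mean square difference of centred log2(CPM + 1) profiles over the 12 libraries, the genes most like the mean of the 8 members among 10191 genes were Maf1 (0.0441), Sirt7 (0.0456), Mdp1 (0.0532), Rab4b (0.0533) and Tmem9b (0.0534). Maf1, a repressor of RNA polymerase III, was at 108 and 109 CPM in WT and KO resting cells and at 45.3 and 48.0 CPM after stimulation. Single members lay from 0.175 (Gimap1) to 0.682 (Gimap5) from that mean. They cannot be weighed against the genes above, which were picked as the closest of 10191 by this same measure. With TMM-scaled levels the profile of Gimap5 ran against the mean of the other 7, with a Pearson r of -0.72 over the 12 libraries, while the other members had r from 0.92 (Gimap9) to 0.998 (Gimap4 and Gimap8). The 12 points fall into 2 conditions, so these values mostly describe the direction of the response, which for Gimap5 rests on the scaling.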

How the data were processed

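Expected counts (estimated, not always whole) from RSEM were deposited in separate tables for resting and stimulated libraries. RSEM 1.3.1, STAR 2.7.0f, cutadapt 1.18, bcl2fastq 2.20 and build mm10 are named in the submitters' processing notes. Per the labels' protocols, a stranded mRNA ligation kit was used. All 55450 identifiers matched GENCODE M21, which gave positions and lengths.

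Counts were rounded. Low genes were removed with filterByExpr (minimum total 15, minimum count 10), TMM scaling was applied, and edgeR 4.0.16 was used for testing (R 4.3.3; robust quasi-likelihood F-test, Benjamini-Hochberg over all genes tested, threshold 0.05). KO was compared with WT in the 6 libraries of each condition; responses and their difference came from 1 fit of all 12. Called means past that threshold. Member levels are CPM scaled by TMM over 12 libraries; marker sums and levels per kb use unscaled totals. SE is the log2 fold change divided by the root of F. DESeq2 1.42.0, other scalings and filters, a replicate block and leaving out libraries were run as alternatives. No 2 replicates agreed within sampling noise.

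Members and gene lists were chosen with earlier results of these data known. Every member was named; from other lists, up to 4 called genes with the largest change, or 2 of highest mean where none was called, and the 5 genes most like the family by profile.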

Additional observations from a re-analysis of the deposited data

Results flagged for a closer look

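Gimap1os was called in the test of the difference of responses, where 0.693% of all genes tested were called. Its KO response minus WT response was -0.53 on the log2 scale (edgeR, adjusted p = 0.039). Stimulated and resting libraries also differ in donor sex and deposited table, so these cannot be told apart from stimulation. The KO libraries of Gimap1os lay above the WT libraries at rest, as in 9.86% of genes, and below them after stimulation, as in 14.6%. It shares 36% of the exon bases of Gimap1 on the opposite strand, while the same difference for Gimap1 was 0.09 ± 0.06 (edgeR, adjusted p = 0.515). The call for Gimap1os was lost in 10 of 20 alternatives, 9 of the 12 fits without 1 library (adjusted p up to 0.113) and the replicate block (adjusted p = 0.0645).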

How the results depend on the processing

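The number of members called was 0 of 8 in all 15 alternatives for KO against WT at rest and in all 14 after stimulation. For the response to stimulation it was 8 in WT and 7 in KO cells in each of 12 fits without 1 library, and from 7 to 8 over all 21 alternatives in either genotype; for the difference of responses it was 0 to 1 without 1 library, the 1 being Gimap5 without WT resting replicate 3. In the response to stimulation only Gimap5 turned direction, to -0.078 in WT and -0.27 in KO cells with library totals in place of TMM. In the comparisons of KO with WT and in the difference of responses, several members that were not called changed sign between alternatives. Gimap7 in stimulated cells, for example, ran from -0.22 to 0.15. Counts over all genes were less stable. At rest the 6 calls became 466 with DESeq2, 40 without a low-count filter, 161 in the fit of all 12 libraries, 30 without the first resting library of both genotypes, which were high in erythroid markers, and 2 to 18 without 1 library (18 without WT replicate 1). After stimulation the 719 calls became 1148 with DESeq2, 219 in the fit of all 12 libraries and 128 (without KO replicate 2) to 1408 (without WT replicate 2) without 1 library. For the difference of responses the 121 calls became 943 with DESeq2, 204 with a filter of 1 CPM in 3 libraries, 209 without the first resting library of both genotypes, and 27 (without KO stimulated replicate 3) to 1646 (without WT resting replicate 3) without 1 library. The cause of these moves was not tested. Same-numbered libraries of WT and KO correlated at 0.391, -0.18 and 0.379 at rest and at -0.0617, 0.052 and 0.11 after stimulation. Numbers 1 and 3 at rest, and number 3 after stimulation, were each other's best match, and the remaining numbers were not. Between KO resting and KO stimulated libraries every number was its own best match (0.113, 0.0511 and 0.0702), and between WT resting and WT stimulated libraries no number was. Whether same-numbered libraries share a batch was not tested. With the replicate number as a block, 0 members were called at rest (5 genes in all), 0 after stimulation (997), 8 in the WT response (14615), 7 in the KO response (14442) and 0 in the difference (95). Of the other called genes followed under the block, only Gimap1os lost its call, in the difference of responses (edgeR, adjusted p = 0.0645). Pkm, Bcl2, Mcl1, Gabarapl2 and Gsk3b were not followed under it.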
